A study of Mus musculus with 6 samples.

Results

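The 10 genes described here are the transcriptional effectors Yap1 and Wwtr1 (the gene of Taz), the DNA-binding partners Tead1, Tead2, Tead3 and Tead4, the kinases Lats1 and Lats2, and the target genes Ctgf and Cyr61. They were chosen by name, with earlier results of these data known. All 10 were found by symbol among the 23038 genes listed for each library. RNA-seq of polyadenylated RNA was done on mouse primary cultured OPCs (mOPCs), the glial precursors of the myelinating oligodendrocytes, isolated from embryos by immunopanning. The 3 control libraries came from cultures given control siRNA (siNC) and the other 3 from cultures given siRNAs against Qk (siQk), the gene of the Qki RNA-binding proteins. Across the siQk libraries, 3 different siRNAs were used, and the labels do not tie a siRNA to a library, so differences among siQk libraries may include differences among siRNAs. Mouse strain was not stated, and both groups were transfected cells. The labels call the libraries biological replicates.

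In the Hippo pathway, the kinases Mst1 and Mst2 activate Lats1 and Lats2, which phosphorylate Yap1 and Taz and keep them out of the nucleus. Where the kinases are inactive, Yap1 and Taz enter the nucleus, bind Tead proteins, which contact DNA, and raise genes such as Ctgf, Cyr61 and Amotl2. In glia, the pathway is known for its part in the response to cell contact and stiffness and in Schwann cell myelination.

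The totals were 58166490 to 141045937 tags per library, and no pair of replicates agreed within sampling noise. The 12505 genes with an average logCPM over 0 were tested with edgeR's quasi-likelihood test, and a gene counts as changed where P is below 0.01 and the Benjamini-Hochberg FDR below 0.1. Of those genes, 31.0% were called changed, 13.8% as higher and 17.2% as lower in siQk (1730 and 2149 genes). Without TMM factors, with library size only, the split was 2989 higher and 1365 lower, and the median over the tested genes moved from 0.01 to 0.16 on the log2 scale. RPKM, tags scaled by exon length and library total, carry no TMM factor, so that the RPKM ratio of siQk to siNC is higher than the fitted fold change. Qk itself was at 209, 206 and 163 RPKM in siNC and at 51.3, 76.6 and 36.2 RPKM in siQk. Its level in siQk was 28.4% of that in siNC, with a log2 fold change of -1.98 (SE 0.28, FDR 0.00311 in edgeR's quasi-likelihood test).

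The cultures held transcripts of OPCs and of later oligodendrocytes, with lower levels of astrocyte and neuron markers and next to none of microglia or fibroblasts. The summed RPKM of 6 OPC markers was 734 to 750 in siNC and 949 to 1140 in siQk, where Cspg4, Olig1 and Olig2 were called higher. The other 3, Pdgfra (0.1 on the log2 scale), Sox10 (-0.02) and Ptprz1 (0.13), were not called. The summed RPKM of 7 oligodendrocyte markers was 3190 to 5640 in siNC and 1320 to 1990 in siQk, with 6 called lower. The 6 astrocyte markers summed to 97.1 to 156 RPKM in siNC and 30.7 to 34.0 RPKM in siQk, with 4 of 5 tested called lower. Among them Gfap fell by 2.95 on the log2 scale, while the defining astrocyte gene Gja1 was at 0.013 RPKM or less in every library. In bulk RNA, fewer cells of a type and less RNA per cell cannot be told apart. Of the 5 tested neuron markers 2 were called higher, Snap25 (2.64 on the log2 scale) and Nefl (1.61), 0 lower, and the median was 0.87. The other 3, Syt1 (0.87), Rbfox3 (-0.57) and Tubb3 (-0.57), were not called. The summed RPKM of the 6 neuron markers, 102 to 172 in siNC and 81.4 to 120 in siQk, is mostly that of Tubb3, which was not called. The 6 microglia markers summed to 0.178 RPKM or less. Fibroblast and mural markers, whose cells express Ctgf and Cyr61 strongly, were near 0: the 6 summed to 0.102 to 0.192 RPKM in siNC and 0.0855 to 0.177 RPKM in siQk, and the highest single value was 0.113 RPKM. The 6 endothelial markers summed to 2.33 to 4.86 RPKM in siNC and 3.5 to 4.62 RPKM in siQk. Almost all of that was Kdr, at 2.27 to 4.7 RPKM over all libraries and not called. The sums of the oligodendrocyte, astrocyte and OPC markers thus separated the groups, while those of the neuron markers overlapped. The part of the transcripts of these 4 cell types in the results that follow was not tested.

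Short sequences are shown for 2 kinds of site: the Tead core in the promoters and the Qki core in the 3′ UTRs. Tead proteins bind GGAATG, which reads CATTCC on the opposite strand. RefSeq promoter windows, from 250 bases before to 50 after a start on GRCm38 (the assembly named mm10), were matched for 7 of the 10 genes. Ctgf, Tead1 and Tead4 were not matched. GGAATG or CATTCC was in a window of 5 of those 7 genes (Cyr61, Lats2, Tead3, Wwtr1 and Yap1), and in 14.7% of all 32851 windows. The first number counts genes, some with several windows, and the second counts windows. The target Amotl2 and the target Axl are shown because they moved in opposite directions in the data, and the 30 bases around each match are given 5′ to 3′ on the strand of the gene, with the match in capitals.

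Cyr61 (chr3:145650071-145650100, minus strand, 103 bases upstream): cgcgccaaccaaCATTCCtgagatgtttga
Wwtr1 (chr3:57576029-57576058, minus strand, 136 and 170 bases upstream of its 2 starts): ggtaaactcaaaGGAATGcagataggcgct
Yap1 (chr9:8004720-8004749, minus strand, 141 bases upstream): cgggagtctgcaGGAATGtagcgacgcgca
Tead3 (chr17:28350697-28350726, minus strand, 114 bases upstream): gctcattccgtaCATTCCggccatccccct
Amotl2 (chr9:102717727-102717756, plus strand, 65 bases upstream): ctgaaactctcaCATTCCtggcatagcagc
Axl (chr7:25788949-25788978, minus strand, 233 bases upstream): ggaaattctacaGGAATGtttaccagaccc

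Of the sites shown, that of Amotl2 was nearest to its start and that of Axl the most distant. The Tead3 window shown held 3 matches in all: a CATTCC that ends 3 bases before the one shown, printed in lower case in that line, and a match that is not among the bases upstream of the start. The window of another Tead3 start held 1 GGAATG. The match of Lats2 also lay outside the bases upstream of its start and is not shown. A match of these letters describes the sequence and is no measurement of binding.

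Qki proteins bind ACUAAY in RNA, where the last base is C or U, so ACTAAC and ACTAAT were searched on the gene strand in each gene's longest 3′ UTR in GENCODE M21. Tead1 held 4 matches in 8147 bases, Wwtr1 held 1 in 3277 bases and Lats1 held 1 in 3450 bases, and the other 7 genes held 0. Of genes with a 3′ UTR within 20% of the same length, 93.5% of 277 held a match at the length of Tead1, 64.6% of 2051 at that of Wwtr1 and 66.6% of 1927 at that of Lats1. The match in each is shown, with the single ACTAAC of Tead1 given for its 4.

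Wwtr1 (chr3:57456594-57456623, minus strand): ccttgactgtttACTAATagataaagccag
Lats1 (chr10:7715430-7715459, plus strand): cagaatgtaaacACTAATtctacgtccttc
Tead1 (chr7:112901200-112901229, plus strand): tctttaatgtatACTAACccccgcccacac

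Tead4 held no match in 1223 bases, and 31.9% of genes of like length held one. Tead1 had the most matches, 4 beside a mean of 3.24 in genes of like length. Introns were not searched, and a relation between matches and levels was not tested.

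The levels spanned a wide range in siNC. In RPKM, which is per length of exon, the order from the highest mean was Lats2, Lats1, Wwtr1, Tead1, Tead3, Cyr61, Tead2, Tead4, Ctgf and Yap1. The neighbours whose libraries overlapped in siNC were Tead3 and Cyr61, Tead2 and Tead4, and Tead4 and Ctgf. In siQk the order was Lats2, Lats1, Tead1, Cyr61, Wwtr1, Tead3, Tead2, Ctgf, Yap1 and Tead4, and the libraries overlapped for Lats2 and Lats1, for Tead2 and Ctgf, and for Yap1 and Tead4. Wwtr1 thus stood above Tead1 in siNC and below Cyr61 in siQk, and Tead4 moved from above Ctgf to the last place.

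**Figure D1:**
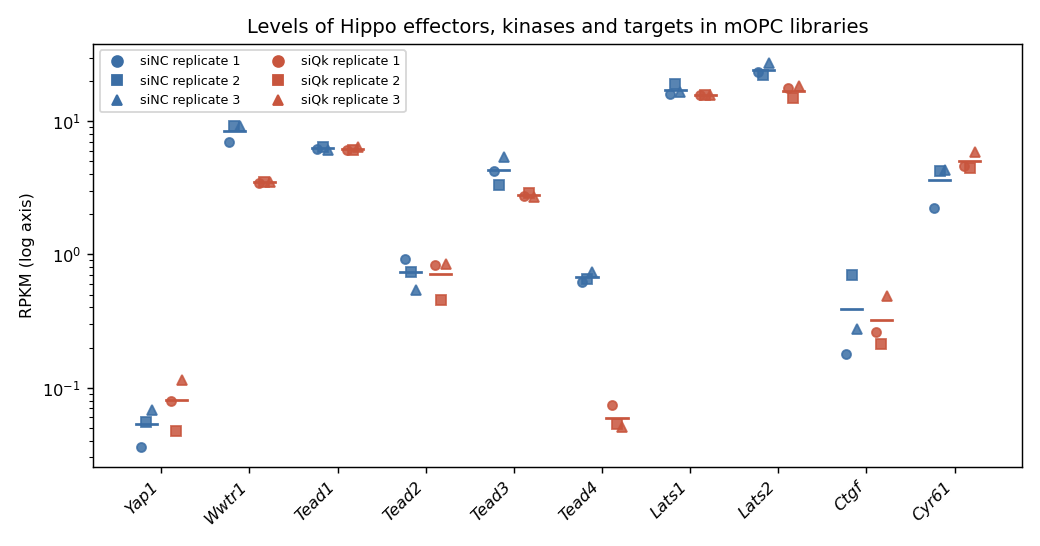
Level of each of the 10 genes in every library, in RPKM on a log axis, with siNC in blue and siQk in red, a marker shape for each replicate and a bar at the mean of 3. Wwtr1 and Tead4 have siQk points well below all siNC points, Tead1 points lie on top of each other, and Yap1 is under 0.12 RPKM in all libraries.

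Of the 10 genes, 8 passed the filter on low counts and 2, Yap1 and Ctgf, did not. Of the 8 tested, 5 were called lower in siQk (Wwtr1, Tead3, Tead4, Lats1 and Lats2), 0 higher and 3 neither (Tead1, Tead2 and Cyr61), a share of 62.5% against the 31.0% called in either direction and the 17.2% called lower over all tested genes. The median log2 fold change of the 8 was -0.47, beside 0.01 over all tested genes, and with library size only it was -0.32 beside 0.16. Tead4 passed the filter through its siNC libraries alone and so had to differ, and the counts and the median over the tested genes are descriptions. Without the siQk replicate 1 library 3 of the 8 were called, and without siQk replicate 3 also 3, Wwtr1, Tead4 and Lats2 each time. The RPKM ranges of siNC and siQk did not overlap for 6 of the 10 genes, beside 58.3% of all tested genes.

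Of the 2 effectors, mOPCs held almost only Wwtr1. Wwtr1 (chr3:57455649-57575910, minus strand) was at 6.92, 9.21 and 9.16 RPKM in siNC and at 3.45, 3.50 and 3.49 RPKM in siQk. All siQk libraries lay below all siNC libraries, and they were nearly equal to each other. The mean level of Wwtr1 went from 8.43 ± 1.31 to 3.48 ± 0.0229 RPKM (SD, n = 3 per group), or 41.3% of siNC. The log2 fold change was -1.42 (SE 0.10, FDR 0.00047 in edgeR's quasi-likelihood test), and it kept its call in all 16 alternatives, between -1.51 and -1.24.

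Yap1 (chr9:7931999-8004596, minus strand), the paralog of Taz, was at 0.0357, 0.0552 and 0.0681 RPKM in siNC and at 0.0801, 0.0474 and 0.114 RPKM in siQk. These levels rest on 18, 53 and 78 tags in siNC and 98, 34 and 125 tags in siQk, under the filter, and the groups overlapped. The mean level of Yap1 was 0.053 ± 0.0163 RPKM in siNC and 0.0805 ± 0.0333 RPKM in siQk (SD, n = 3 per group, exact two-sided permutation p = 0.3, where 0.1 is the smallest 3 against 3 allows). In a fit of 19223 genes with no filter, its log2 fold change was 0.48 (SE 0.37, FDR 0.388 in edgeR's quasi-likelihood test). No change of Yap1 was detectable at this depth.

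Wwtr1 exceeded Yap1 by a factor of 194, 167 and 135 in the siNC libraries and of 43.1, 73.7 and 30.6 in the siQk libraries, on the RPKM scale. The share of Yap1 in the summed RPKM of both effectors was 0.513%, 0.596% and 0.738% in siNC and 2.27%, 1.34% and 3.16% in siQk, a difference of 1.64 percentage points with no overlap. The summed level of both effectors was 8.48 ± 1.32 RPKM in siNC and 3.56 ± 0.0377 RPKM in siQk (SD, n = 3 per group). The sum thus followed Wwtr1, and the Yap1 share stayed small in every library.

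The 4 Tead genes encode the transcription factors that carry Yap1 and Taz to DNA, and they behaved differently from each other. Tead4 (chr6:128224288-128300823, minus strand) was at 0.618, 0.655 and 0.740 RPKM in siNC and at 0.0746, 0.0533 and 0.051 RPKM in siQk. The tag numbers of Tead4 were 106, 214 and 288 in siNC and 31, 13 and 19 in siQk, and all siQk libraries lay far below all siNC libraries. Its mean level went from 0.671 ± 0.0623 to 0.0596 ± 0.013 RPKM (SD, n = 3 per group), or 8.88% of siNC, with a log2 fold change of -3.62 (SE 0.22, FDR 0.000383 in edgeR's quasi-likelihood test). The call held in all 16 alternatives. Since Tead4 passed the filter through its siNC libraries alone, its call is a description and no independent support. The fold change lay between -3.83 and -2.27, the smallest being that of limma on log2(RPKM + 0.1), where the pseudocount is above every siQk level of the gene.

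Tead3 (chr17:28331671-28350817, minus strand) was at 4.19, 3.31 and 5.35 RPKM in siNC and at 2.72, 2.91 and 2.71 RPKM in siQk. The siNC libraries were spread and all above the siQk libraries, which lay close together. The mean level was 4.28 ± 1.03 RPKM in siNC and 2.78 ± 0.114 RPKM in siQk (SD, n = 3 per group). Its log2 fold change was -0.77 (SE 0.17, FDR 0.013 in edgeR's quasi-likelihood test). The call held in 12 of 16 alternatives. It was lost without siQk replicate 1 (-0.76, FDR 0.0535) and without siQk replicate 3 (-0.76, FDR 0.0428 with P 0.0105), while the size of the change was kept. It was also lost with limma on log2(RPKM + 0.1) (-0.58, P 0.0103) and under the cutoff that also requires a doubling or halving.

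Tead1 (chr7:112679318-112906807, plus strand) was the most abundant of the 4, at 6.23, 6.42 and 6.09 RPKM in siNC and at 6.06, 6.12 and 6.37 RPKM in siQk. The groups overlapped, with means of 6.24 ± 0.164 and 6.19 ± 0.163 RPKM (SD, n = 3 per group). The log2 fold change of Tead1 was -0.17 (SE 0.07, FDR 0.0909 in edgeR's quasi-likelihood test), which misses the cutoff on P at 0.0425, and it was called in none of the 16 alternatives, where it lay between -0.21 and -0.014. Tead2 (chr7:45215753-45233644, plus strand), best known from early embryonic and neural progenitor cells, was at 0.931, 0.744 and 0.539 RPKM in siNC and at 0.839, 0.452 and 0.854 RPKM in siQk. The libraries overlapped and the log2 fold change of -0.19 (SE 0.33, FDR 0.67 in edgeR's quasi-likelihood test) was smaller than its error. It turned to 0.053 without siNC replicate 1 and likewise without siQk replicate 2. Tag numbers of Tead1, and of Tead2 in 1 library, carry decimals, so a part of their reads was assigned by estimate.

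Within the family, Tead1 took a larger share in siQk at a nearly equal level (means of 6.24 RPKM in siNC and 6.19 RPKM in siQk). Its share of the summed RPKM of Tead1 to Tead4 was 52.1%, 57.7% and 47.9% in siNC and 62.5%, 64.2% and 63.8% in siQk, with means of 52.5% ± 4.92 and 63.5% ± 0.86 (SD, n = 3 per group, exact two-sided permutation p = 0.1, the smallest 3 against 3 allows). The share of Tead4 was 5.17%, 5.89% and 5.82% in siNC and 0.769%, 0.559% and 0.51% in siQk, a difference of -5.01 points (exact permutation p = 0.1). Both shares separated the groups, and the Benjamini-Hochberg adjusted p of the permutation test was 0.175 for each. The 4 shares of a library make up 1 whole and are not independent, so the mean share of Tead1 rose where those of Tead3 and Tead4 fell. The share of Tead3 was 35.6% ± 6.19 in siNC and 28.6% ± 1.75 in siQk (SD, n = 3 per group, exact permutation p = 0.2), and that of Tead2 was 6.24% ± 1.82 and 7.32% ± 2.23 (exact permutation p = 0.5), both with overlap. The summed level of the 4 genes was 11.9 ± 0.799 RPKM in siNC and 9.74 ± 0.226 RPKM in siQk. In all, 7 shares were tested over the 4 gene groups, and none can pass 0.05 in this design.

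**Figure D2:**
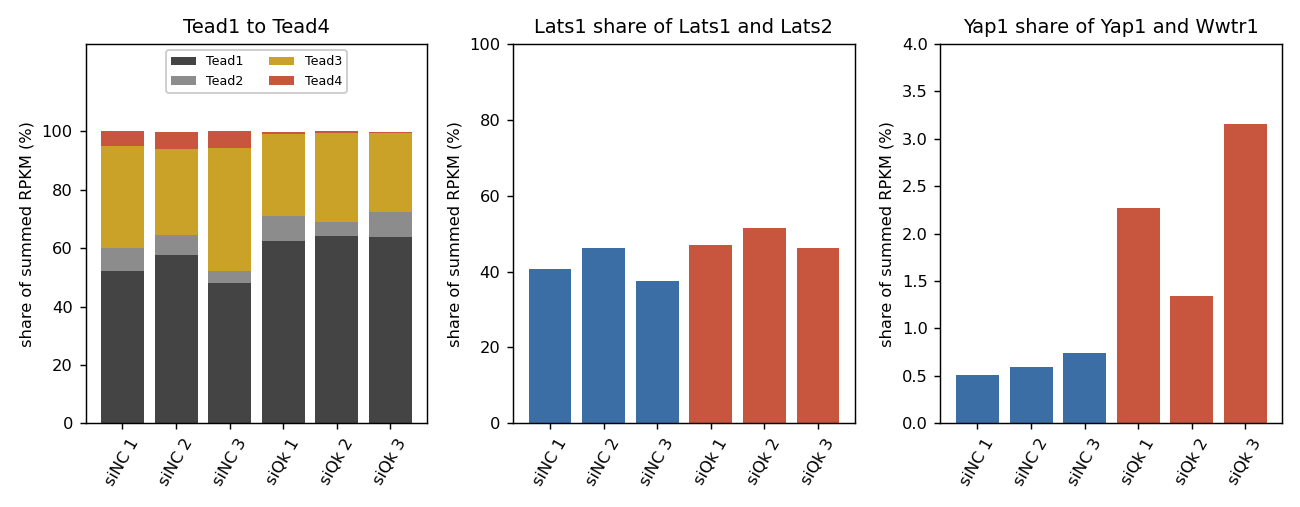
Share of each paralog in the summed RPKM of its group, in percent, for each library. In the left panel the Tead4 segment is 5.17% to 5.89% in siNC and under 1% in siQk, the middle panel has Lats1 at 37.6% to 46.1% in siNC and 46.2% to 51.4% in siQk, and the right panel has Yap1 below 1% in siNC and from 1.34% to 3.16% in siQk on an axis that ends at 4%.

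The kinases that restrain Yap1 and Taz were the most abundant of the 10 genes. Lats2 (chr14:57689662-57758388, minus strand), which is itself a Yap/Taz target gene, was at 23.3, 22.1 and 27.2 RPKM in siNC and at 17.8, 14.8 and 18.3 RPKM in siQk. All siQk libraries lay below all siNC libraries. The mean level was 24.2 ± 2.64 RPKM in siNC and 16.9 ± 1.87 RPKM in siQk (SD, n = 3 per group), or 70.0% of siNC, with a log2 fold change of -0.66 (SE 0.11, FDR 0.00543 in edgeR's quasi-likelihood test). The call of Lats2 held in 15 of 16 alternatives and ended only under the cutoff that also requires a doubling or halving.

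Lats1 (chr10:7681214-7716460, plus strand) was at 15.9, 18.9 and 16.4 RPKM in siNC and at 15.8, 15.6 and 15.7 RPKM in siQk. The groups touched without overlap, since the lowest siNC library was at 15.9 and the highest siQk library at 15.8 RPKM. The log2 fold change was -0.27 (SE 0.07, FDR 0.0291 in edgeR's quasi-likelihood test), and the call held in 4 of 16 alternatives only. With library size only the log2 fold change of Lats1 was -0.12 (FDR 0.27), and the call was also lost without siNC replicate 1 (FDR 0.0582), siNC replicate 2 (FDR 0.0444 with P 0.0144), siQk replicate 1 (FDR 0.09), siQk replicate 2 (FDR 0.0927) or siQk replicate 3 (FDR 0.074). The share of Lats1 in the summed RPKM of both kinases, which no scaling changes, was 40.6%, 46.1% and 37.6% in siNC and 47.1%, 51.4% and 46.2% in siQk, a difference of 6.8 points (exact two-sided permutation p = 0.1). The summed level of both kinases went from 41.2 ± 2.18 to 32.6 ± 1.95 RPKM (SD, n = 3 per group), with no overlap.

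The 2 secreted matrix proteins that serve most often as readouts of Yap and Taz were not called changed. Cyr61 (named Ccn1 in the annotation, chr3:145646976-145649981, minus strand) was at 2.24, 4.23 and 4.33 RPKM in siNC and at 4.63, 4.42 and 5.88 RPKM in siQk. In RPKM, which carries no TMM factor, the siQk libraries lay narrowly above the siNC libraries, of which replicate 1 was lowest. The lowest siQk library was replicate 2 at 4.42 RPKM, and the highest siNC library was replicate 3 at 4.33 RPKM. With their TMM factors of 1.07 and 0.987 the order of both libraries reverses, so the groups overlap after that scaling. The mean was 3.6 ± 1.18 RPKM in siNC and 4.98 ± 0.789 RPKM in siQk (SD, n = 3 per group), and the log2 fold change was 0.32 (SE 0.24, FDR 0.32 in edgeR's quasi-likelihood test). It was called in none of the 16 alternatives, and without siNC replicate 1 it was 0.11 (FDR 0.634).

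Ctgf (Ccn2 in the annotation, chr10:24595442-24598683, plus strand) was at 0.179, 0.706 and 0.277 RPKM in siNC and at 0.263, 0.211 and 0.487 RPKM in siQk. The groups overlapped, and siNC replicate 2 was the highest of all libraries. These levels rest on 25, 188 and 88 tags in siNC and 89, 42 and 148 tags in siQk, under the filter. The exact two-sided permutation p was 0.8, and in the fit with no filter the log2 fold change of Ctgf was -0.40 (SE 0.51, FDR 0.59 in edgeR's quasi-likelihood test). The share of Ctgf in the sum of both targets was 9.24% ± 4.44 in siNC and 5.86% ± 1.6 in siQk (SD, n = 3 per group, exact permutation p = 0.3), with overlap, as had the summed level of 3.99 ± 1.37 and 5.3 ± 0.936 RPKM.

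**Figure D3:**
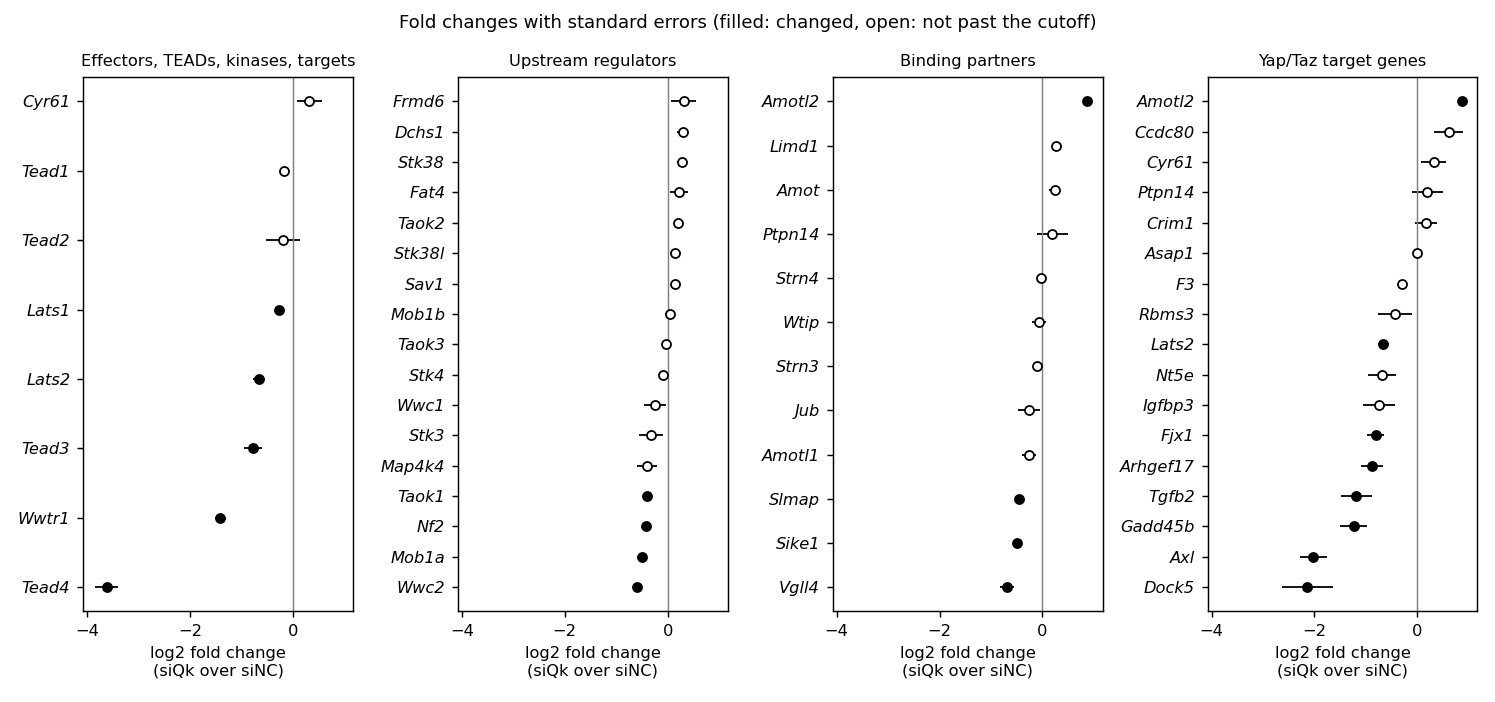
Log2 fold change of siQk over siNC with its standard error for the tested genes of each list, filled where called changed and open where not; Jub is the listed symbol of Ajuba, and 1 tested binding partner that was not called is not drawn. Tead4 at -3.62 and Wwtr1 at -1.42 are the lowest of the 8 tested genes in the left panel, Amotl2 at 0.87 is the called gene above 0 in the panels of binding partners and target genes, and the called upstream regulators lie between -0.59 and -0.40.

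Among the listed kinases and regulators of the pathway, the changes were small. All 17 listed regulators were tested, which include the kinases Stk3 and Stk4 (the genes of Mst2 and Mst1), their adaptors and the Taok kinases. The list, named upstream regulators here, also holds Stk38 and Stk38l, kinases that are relatives of Lats1 and Lats2. Of these 4 were called lower and 0 higher, or 23.5% beside the 31.0% of all tested genes, with a median log2 fold change of -0.04 that turned to 0.11 with library size only, 0.11 with limma on RPKM and 0.02 with upper quartile factors. Wwc2, a scaffold that binds Lats kinases, went from 21.9 ± 3.00 to 16.1 ± 1.24 RPKM (SD, n = 3 per group), with a log2 fold change of -0.59 (SE 0.09, FDR 0.00414 in edgeR's quasi-likelihood test). Mob1a, the Lats co-activator, went from 29.0 ± 1.91 to 22.8 ± 2.62 RPKM and had a log2 fold change of -0.50 (SE 0.09).

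Nf2, which encodes Merlin, went from 55.1 ± 3.62 to 45.6 ± 1.05 RPKM, with a log2 fold change of -0.42 (SE 0.06). Taok1, a kinase that activates Mst kinases, was at 23.7 ± 1.12 RPKM in siNC and at 84.4% of that mean in siQk, and had a log2 fold change of -0.40 (SE 0.07). In each of these 4 genes all siQk libraries lay below all siNC libraries. The RPKM ranges did not overlap for 10 of the 17 regulators, beside 58.3% of all tested genes. In the rest of those 10 all siQk libraries lay above all siNC libraries, and none of these was called. Mob1a and Taok1 were not called with library size only (log2 fold changes of -0.35 and -0.25). Taok1 was also not called with limma on log2(RPKM + 0.1) (-0.24). The count of called regulators was 7 without siNC replicate 2, with 3 higher and 4 lower.

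Among proteins that bind Yap, Taz or Tead or the phosphatase complex that acts on Mst kinases, 13 of 16 were tested, and Vgll1, Vgll2 and Vgll3 fell under the filter. Amotl2, an angiomotin that holds Yap and Taz at junctions and is also a target gene, was called higher, 3 were called lower, and 9 were not called. The share called was 30.8%, beside the 31.0% of all tested genes, and the median log2 fold change was -0.07, which turned to 0.07 with library size only. Amotl2 was at 27.1, 28.8 and 27.3 RPKM in siNC and at 54.8, 58.4 and 56.1 RPKM in siQk. Both groups were tight and did not overlap. Its log2 fold change was 0.87 (SE 0.06, FDR 0.000551 in edgeR's quasi-likelihood test), a 1.83-fold higher level after TMM scaling.

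The 3 lower genes of that list were Vgll4, Sike1 and Slmap. Vgll4, which competes with Yap for Tead, went from 67.9 ± 12.7 to 46.7 ± 5.44 RPKM (SD, n = 3 per group), with a log2 fold change of -0.69 (SE 0.13, FDR 0.00909 in edgeR's quasi-likelihood test). Sike1 and Slmap, both subunits of the phosphatase complex, had log2 fold changes of -0.49 (SE 0.08) and -0.45 (SE 0.08). The siQk libraries of all 3 genes lay below all siNC libraries. The RPKM ranges did not overlap for 9 of the 16 listed genes, in both directions, beside 58.3% of all tested genes. Slmap was not called with library size only (-0.30) or with limma on log2(RPKM + 0.1) (-0.29).

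Yap/Taz target genes known from other cell types moved in both directions, more of them down. Of 22 listed, 17 were tested, 7 were called lower and Amotl2 higher, or 47.1% beside the 31.0% of all tested genes, and 41.2% lower beside 17.2%. The median log2 fold change was -0.66, and -0.51 with library size only. Without the genes described above as members (Lats2, Cyr61 and Ctgf), 15 were tested, with 6 lower, 1 higher and a median of -0.69. Without siQk replicate 1 or siQk replicate 2 the number called fell to 4 of the list, with 3 lower. The RPKM ranges did not overlap for 11 of the 22 listed genes, beside 58.3% of all tested genes. Myof, Ankrd1, Foxf2 and Nuak2 were under the filter together with Ctgf.

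Axl, a receptor tyrosine kinase for Gas6, was at 3.50, 3.27 and 2.33 RPKM in siNC and at 0.836, 0.608 and 1.05 RPKM in siQk. The siQk libraries lay below those of siNC without overlap, and the log2 fold change of Axl was -2.02 (SE 0.26, FDR 0.00247 in edgeR's quasi-likelihood test). Dock5, an exchange factor for Rac, was at 1.57, 4.47 and 1.21 RPKM in siNC and at 0.537, 0.500 and 0.776 RPKM in siQk. Its siNC replicate 2 stood apart. The log2 fold change of Dock5 was -2.14 (SE 0.50, FDR 0.0177 in edgeR's quasi-likelihood test). The call was lost without siQk replicate 1 (-2.06) or siQk replicate 2 (-2.02), and with replicate number as a block (-1.92). Without siNC replicate 2 the log2 fold change of Dock5 was -1.37 and the call held.

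Gadd45b, a stress-induced gene, was at 23.8, 13.8 and 13.5 RPKM in siNC and at 7.95, 9.02 and 7.32 RPKM in siQk. The log2 fold change of Gadd45b was -1.24 (SE 0.26, FDR 0.0124 in edgeR's quasi-likelihood test). Its call was lost without siQk replicate 3 (-1.18, P 0.0108). Tgfb2, a TGF-beta ligand, went from 6.32 ± 2.27 to 3.11 ± 0.718 RPKM (SD, n = 3 per group), with a log2 fold change of -1.19 (SE 0.30). Tgfb2 was not called without siQk replicate 1 (-1.06) or siQk replicate 2 (-1.12), nor with replicate number as a block (-1.13). In both genes siNC replicate 1 was the highest library, and without it the log2 fold changes were -0.87 for Gadd45b and -0.80 for Tgfb2, both called. The remaining lower genes, named to complete the count and chosen after their values were seen, were Fjx1 (-0.81) and Arhgef17 (-0.88), besides Lats2. Fjx1 was not called without siQk replicate 1 (-0.78) or siQk replicate 2 (-0.76). Arhgef17 was not called without siNC replicate 1 (-0.84), siNC replicate 2 (-0.77), siQk replicate 1 (-0.92) or siQk replicate 2 (-0.71). Its call was also lost with replicate number as a block (-0.89) and with limma on log2(RPKM + 0.1) (-0.57).

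**Figure D4:**
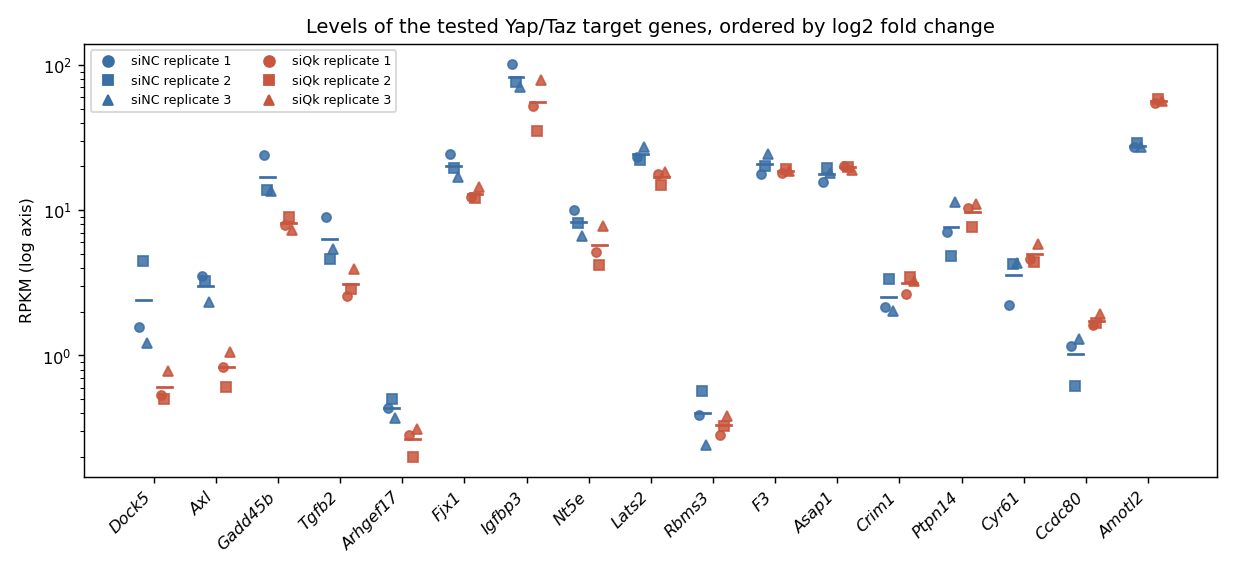
Level of each tested Yap/Taz target gene in every library, in RPKM on a log axis, ordered by log2 fold change, with siNC in blue, siQk in red, a marker shape for each replicate and a bar at the mean of 3. Axl has all siQk points at 0.608 to 1.05 RPKM below all siNC points, while Amotl2 has all siQk points above 54 RPKM and all siNC points below 29 RPKM.

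Of the 15 listed targets with a RefSeq window, 7 held the Tead core. Among them Amotl2 was called higher, Axl and Lats2 were called lower, Cyr61, Crim1 and Ptpn14 were not called, and Ankrd1 was under the filter. No comparison of targets with and without the core was made.

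**Figure D5:**
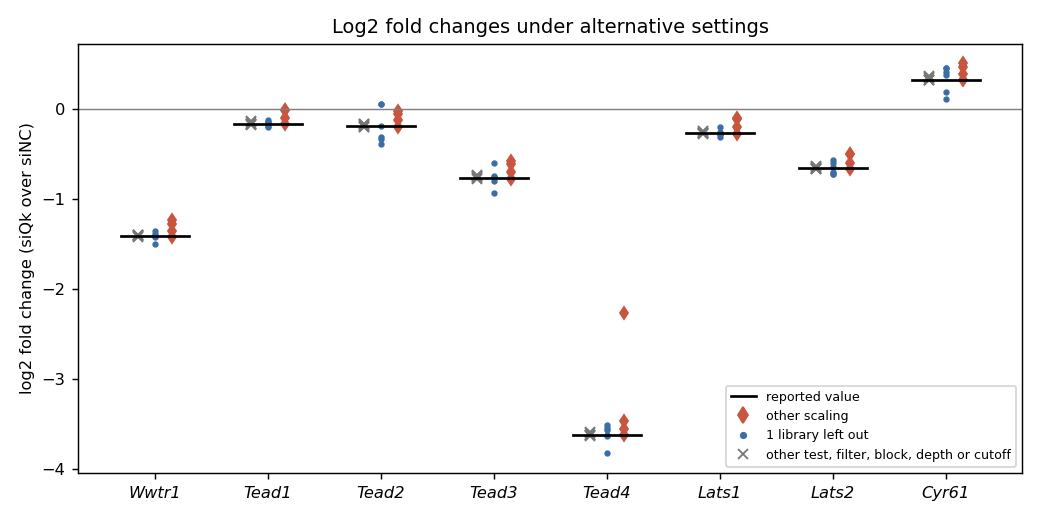
Log2 fold change of the 8 tested genes as reported (black bar) and under 16 other settings: other scalings as diamonds, 1 library left out as dots and the rest as crosses. The values of Wwtr1 stay between -1.51 and -1.24, Tead2 crosses 0, and the diamond of Tead4 at -2.27 comes from RPKM with a pseudocount of 0.1.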

How the data were processed

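Reads were mapped by the authors with OLego to mm10, and gene levels came from Quantas; versions and annotation are not given in the sources used here. The authors deposited for each gene its exon length, an unnormalized estimated count of tags, and an RPKM value, which corrects that count for exon length and library total. The kit does not mark strand, so reads of a gene and of its antisense partner cannot be told apart. The expected counts were rounded and fitted with edgeR 4.0.16 (limma 3.58.1, R 4.3.3), TMM factors and group as the only term. Genes with an average logCPM over 0 were tested. P-values set the group difference against the spread between these libraries, which in siQk may include differences among siRNAs. The SE is the size of the log2 fold change over the square root of F. On simulated data with 12467 tested genes and 197 changed, 98.5% of the changed genes were called, and 8.92% of calls were unchanged genes. In that simulation each changed gene moved by 1 on the log2 scale, and all genes shared the same dispersion. Its percentages therefore do not describe smaller changes or the spread of these libraries. The members, gene lists and tests were chosen with earlier results of these data known. Named genes were the members, Qk and, of each list, at most 4 called genes per direction by size. Some listed genes outside this rule, such as those of the CCN family, were also named. The 3 genes most like Yap1 and Wwtr1 by Pearson r were named too, among tested genes with an average logCPM over 3. The values of 1 binding partner are not reported here. No pairing of libraries by replicate number was seen: the correlations of deviations were -0.053, -0.152 and -0.34. With 3 libraries per group these cannot show whether libraries of the same number shared a culture. Promoter windows are RefSeq's and positions GENCODE M21's, both on GRCm38. DESeq2 1.42.0, limma on log2(RPKM + 0.1), other scalings, filters and cutoffs, thinning to the smallest library, a replicate block, tags not divided by exon length and leaving out each library were the alternatives.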

Additional observations from a re-analysis of the deposited data

How the results depend on the processing

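Wwtr1, Tead4 and Qk kept their calls in all 16 alternatives, but Tead4 passed the filter through its siNC libraries alone. Of 352 single-gene values for 22 genes, 303 kept direction and side of the cutoff, 47 lost the call and 2 reversed, both Tead2 (0.053 without siNC replicate 1 and 0.053 without siQk replicate 2). The cause of these shifts was not tested, except that a stricter cutoff calls fewer genes by construction. Counts under about 1 CPM, as for Yap1 and Ctgf, limit what can be seen. Replicates have equal numbers in both groups, but the correlations of their deviations were negative, and 0 of 3 siNC libraries correlated best with the siQk library of the same number. With the replicate block, 2796 genes were called changed (3879 without it), 4 of the 8 members, 5 target genes and 4 lower target genes. With library size only, 2989 genes were higher and 1365 lower, 3 upstream regulators were higher and 2 lower, and 2 binding partners were higher. With limma on log2(RPKM + 0.1), 3087 genes were higher and 1339 lower, 3 members were changed and lower, 3 upstream regulators higher and 2 binding partners higher. With the stricter cutoff (FDR below 0.05, log2 fold change of 1 or more in size), the calls were 946 genes (326 higher, 620 lower), 2 members, all lower, 0 upstream regulators and 0 lower, 0 binding partners, 0 higher and 0 lower, and 4 target genes, 0 higher and 4 lower. Upstream regulators called higher numbered 1 with DESeq2, 2 with upper quartile factors and 2 with no filter, and binding partners called higher numbered 2 with DESeq2, 2 with upper quartile factors, 3 with no filter (7 called in all) and 2 with filterByExpr. Leaving out each library in turn (with 2 libraries in a group, spread shared by both) gave 2470 to 3712 changed genes (lowest without siQk replicate 1), 1010 to 1610 higher and 1460 to 2102 lower. The log2 fold change of Tead2 then ranged from -0.39 to 0.053. The same omissions gave 3 to 5 members changed, 3 to 5 lower and 0 to 0 higher. It gave 4 to 7 upstream regulators, 0 to 3 higher and 4 to 5 lower, and 4 to 5 binding partners, 1 to 2 higher and 3 to 3 lower. It gave 4 to 9 target genes, 1 to 1 higher and 3 to 8 lower. Differences in shares then ranged from 1.19 to 2.1 points for Yap1, 8.64 to 13.5 for Tead1, 0.0778 to 2.36 for Tead2, -9.97 to -3.8 for Tead3, -5.24 to -4.88 for Tead4, 4.88 to 9.13 for Lats1 and -4.99 to -0.848 for Ctgf. With tags not divided by exon length, the Yap1 difference was 2.92 points and that of Tead4 was -2.13 points.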

Other observations

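Among the 6 genes of the CCN family, to which Ctgf and Cyr61 belong, Cyr61 alone passed the filter on low counts. Nov, a family member that is not counted among the Yap/Taz targets above and was chosen after its values were seen, was at 0.363, 0.515 and 0.333 RPKM in siNC and at 0.0600, 0.0818 and 0.0869 RPKM in siQk. These levels of Nov rest on 50, 135 and 104 tags in siNC and 20, 16 and 26 tags in siQk, under the filter. All siQk libraries of Nov lay below all siNC libraries. In the fit with no filter on 19223 genes its log2 fold change was -2.53 (SE 0.30, FDR 0.00102 in edgeR's quasi-likelihood test). The same fit gave -3.0 for Wisp1 (FDR 0.00832), on still fewer tags, -0.43 for Wisp2 (FDR 0.478) and 0.63 for Wisp3 (FDR 0.1). Wisp2 and Wisp3 were not called there. The libraries of Ctgf overlapped, and Cyr61 was not called.

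Over the 6 libraries, the genes whose log2 CPM followed Wwtr1 most closely were Stard3nl (Pearson r = 0.999), Pvrl3 (0.998) and Abca1 (0.997), out of 10038 genes compared, of which 656 had r over 0.95. For Yap1 they were Numbl (0.98), Crip2 (0.964) and Sgip1 (0.954), out of 10039 compared, and these were the 3 with r over 0.95. The points share the group difference and the depth of each library, and the values are a description.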
